A study of Mus musculus with 9 samples.

Results

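A set of 10 immediate early genes was followed across bone marrow cells of 3 mouse genotypes: the AP-1 subunit genes Fos, Fosb, Jun, Junb and Jund, the transcription regulator genes Egr1, Ier2 and Atf3, and the feedback genes Dusp1 and Zfp36. They were taken by symbol, with earlier results of these data known, and they are 10 of the 17769 genes in the count table. All 10 were among the 13608 genes that had enough counts to test. The cells were sorted from bone marrow by flow cytometry as MEP, the usual abbreviation for megakaryocyte-erythroid progenitors, and their RNA was made into libraries with Smart-Seq2, a full-length method that does not keep the strand. The mice were C57BL/6N, and 5 daily injections of tamoxifen had been given to induce the Jak2 mutations. The VF group (SclCre;V617F) was taken 12 weeks after tamoxifen, the E12 group (SclCre;Exon12) 6 weeks after, and the WT group 12 weeks after. In both mutant groups the recombinase is driven by the Scl promoter, which is active in blood stem and progenitor cells. The labels do not say whether the WT mice carried the recombinase, and they do not say whether the 3 libraries of a group came from separate mice, so each p measures the spread between libraries. E12 differed from the other groups in both genotype and time, and these cannot be told apart.

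Immediate early genes are transcribed within minutes of a signal from a growth factor, cytokine or stress, without new protein synthesis, and their RNAs are short-lived. Fos and Jun proteins pair to form AP-1, a dimer that binds DNA, while MAP kinases acting on serum response factor, its partners and CREB switch many of these genes on. Dusp1 protein dephosphorylates MAP kinases and Zfp36 protein (tristetraprolin) speeds the decay of RNAs with AU-rich elements, so both act back on the response. JAK2 is the kinase that signals from the erythropoietin and thrombopoietin receptors.

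The sequences just upstream of the genes show the letters through which several of these signals are known to act. RefSeq gave a start for 8 of the 10 genes, and the 250 bases before it were read in the build GRCm38.p6 on the strand of the gene. The windows printed here are those of the members, among the 8, whose libraries varied most within VF, with Junb as a neighbour in the same family. Each runs 5′ to 3′ and ends 1 base before the start, and capitals mark the half-site of the cyclic AMP response element (TGACG, or CGTCA on the other strand) or, in Zfp36, the CArG box to which serum response factor binds.
Fos, chr12:85473640-85473889, plus strand: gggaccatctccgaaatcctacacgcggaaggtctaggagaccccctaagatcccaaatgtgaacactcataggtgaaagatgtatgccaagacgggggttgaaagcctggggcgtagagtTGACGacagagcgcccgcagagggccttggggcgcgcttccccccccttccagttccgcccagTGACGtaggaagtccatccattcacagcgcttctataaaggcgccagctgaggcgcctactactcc
Fosb, chr7:19310046-19310295, minus strand: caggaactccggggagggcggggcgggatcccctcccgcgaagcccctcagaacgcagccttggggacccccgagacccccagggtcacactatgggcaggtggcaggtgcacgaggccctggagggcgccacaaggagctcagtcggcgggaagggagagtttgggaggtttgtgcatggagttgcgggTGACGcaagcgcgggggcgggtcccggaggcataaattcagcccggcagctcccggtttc
Junb, chr8:84978749-84978998, minus strand: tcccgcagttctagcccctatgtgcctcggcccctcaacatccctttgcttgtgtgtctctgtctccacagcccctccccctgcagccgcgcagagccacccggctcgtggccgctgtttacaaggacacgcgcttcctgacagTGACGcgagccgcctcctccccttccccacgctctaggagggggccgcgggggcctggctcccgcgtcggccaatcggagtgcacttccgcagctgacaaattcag
Dusp1, chr17:26508473-26508722, minus strand: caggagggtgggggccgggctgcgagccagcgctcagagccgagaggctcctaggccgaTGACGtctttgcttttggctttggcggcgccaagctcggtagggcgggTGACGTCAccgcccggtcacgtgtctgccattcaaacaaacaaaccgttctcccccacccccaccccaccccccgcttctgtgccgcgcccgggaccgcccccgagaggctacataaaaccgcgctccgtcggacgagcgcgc
Zfp36, chr7:28379229-28379478, minus strand: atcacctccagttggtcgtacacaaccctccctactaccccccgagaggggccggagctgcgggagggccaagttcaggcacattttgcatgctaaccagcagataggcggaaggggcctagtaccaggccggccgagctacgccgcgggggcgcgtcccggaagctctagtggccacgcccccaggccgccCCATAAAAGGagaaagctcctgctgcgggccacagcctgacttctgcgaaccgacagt
Jun, chr4:95052223-95052472, minus strand: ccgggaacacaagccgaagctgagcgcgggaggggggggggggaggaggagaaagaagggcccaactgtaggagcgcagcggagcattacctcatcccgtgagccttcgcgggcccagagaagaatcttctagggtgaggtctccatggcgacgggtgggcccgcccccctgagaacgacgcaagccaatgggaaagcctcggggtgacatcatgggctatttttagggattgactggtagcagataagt

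The half-site stood in 5 of the 8 windows, those of Fos, Fosb, Junb, Dusp1 and Atf3, and in 17.8% of all 32851 windows of the same length. These 5 windows had 58.4 to 68.8% GC, against a median of 52.4% over all windows, and the shares of all windows were not matched for GC. Fos held the half-site at positions -129 to -125 and -66 to -62, counted from the start. It also held TATAAA at -33 to -28, which was in 12.4% of all windows. Dusp1 held 3 half-sites, of which 2 overlap to form the full palindrome TGACGTCA at -143 to -136, found in 1.55% of all windows. Among the 8 windows that of Zfp36 alone held the CArG box, at -58 to -49 (1.47% of all windows). It alone also held TTCNNNGAA, the letters bound by STAT factors, at -17 to -9 (7.02% of all windows). Egr1 and Ier2 had no window, and bases further upstream were not read. The Egr letters GCGNGGGCG were in Fosb at -50 to -42 and in Zfp36 at -105 to -97, and in 4.70% of all windows. The AP-1 letters TGANTCA were in none of the 8 windows and in 6.75% of all. The Jun window held none of the motifs searched, both strands being read. The RefSeq start of Jund lies 1210 bases upstream of the first base in GENCODE M21, so its window does not adjoin that annotated start. The Fosb window begins at base 19310046, while the Fosb gene span used here ends at 19310118, on the minus strand. That window therefore overlaps the gene span, and its half-site and Egr letters lie inside the span. A match of letters is a description of the window and says nothing of binding.

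**Figure D1:**
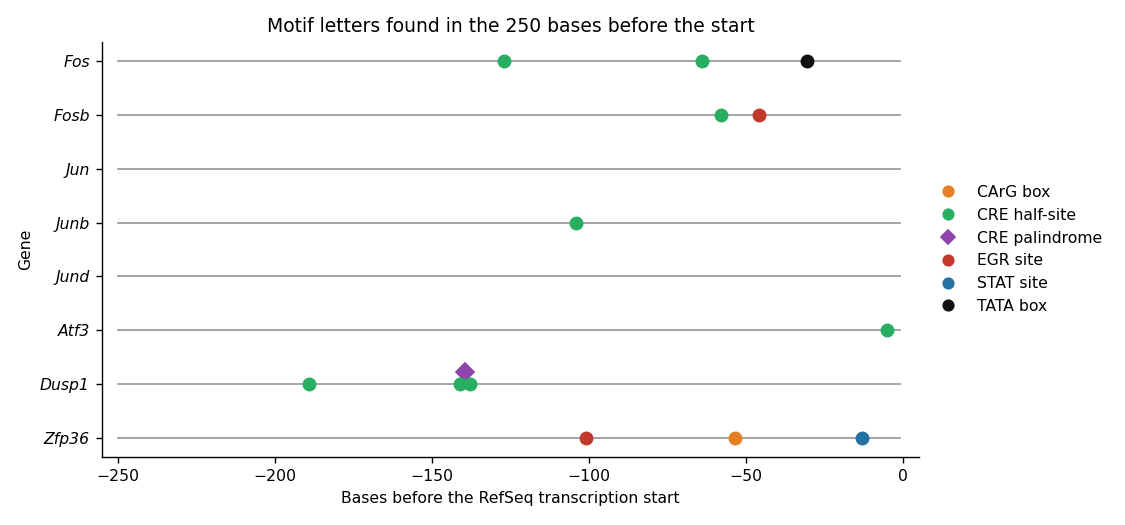
Position of each motif match (x axis, bases before the RefSeq start) in the 8 genes with a window (y axis), coloured by motif. Matches of the cyclic AMP half-site stand in 5 genes, and the CArG box and STAT letters stand in Zfp36.

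The libraries were compared before the genes. Totals were 19256431 to 21331168 counts in VF, 20328414 to 23499914 in E12 and 33838681 to 39736096 in WT. Levels are given as CPM, the usual count scaled to the library total, here with TMM factors. In their titles the WT libraries carry numbers from a different range than the mutants, and the labels do not say what the numbers stand for. Of WT counts 11.2 to 27.9% fell in genes shorter than 1 kb, against 6.92 to 8.97% in the mutants. Genotype and this numbering cannot be told apart. Jak2 itself was at 83.1 to 92.5 CPM in VF, 37.2 to 41.9 in E12 and 15.7 to 38.6 in WT, and a count per gene does not show the mutation. The libraries also differed in sex-linked RNA, and the labels give no sex. Xist, the RNA of the inactive X chromosome, was at 553 CPM in VF 1, 238 in VF 2 and 1137 in E12 5, and between 0 and 3.32 in the other 6 libraries. The Y-linked gene Ddx3y was at 0.69 CPM in E12 5 and between 8.44 and 65.6 in the other 8. VF 1 and VF 2 thus held both, with Ddx3y at 35.9 and 54.1 CPM.

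All 10 genes had a higher fitted level in VF than in WT, and 8 of them rose by the test (edgeR quasi-likelihood, Benjamini-Hochberg adjusted p under 0.05), against 27.7% of all genes tested. In E12 against WT 10 of 10 rose, against 23.9% of all genes tested. Atf3 is in both counts, and it had enough counts to test only through the E12 libraries, where it was highest. The median log2 fold change of the 10 genes was 3.07 in VF and 3.46 in E12, beside 0.36 over all genes in each comparison. Between E12 and VF no member passed the test in either direction, where 2.19% of all genes passed upward and 1.02% downward. The libraries of VF lay above every WT library for 9 of the 10 genes, as they did for 39.7% of all genes. Those of E12 did so for 10 of 10, and for 33.0% of all genes. The same 3 WT libraries serve both comparisons, so both sets of values share their controls. A CPM says nothing of whether more cells held it or each cell held more, and these cannot be told apart in bulk samples.

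**Figure D2:**
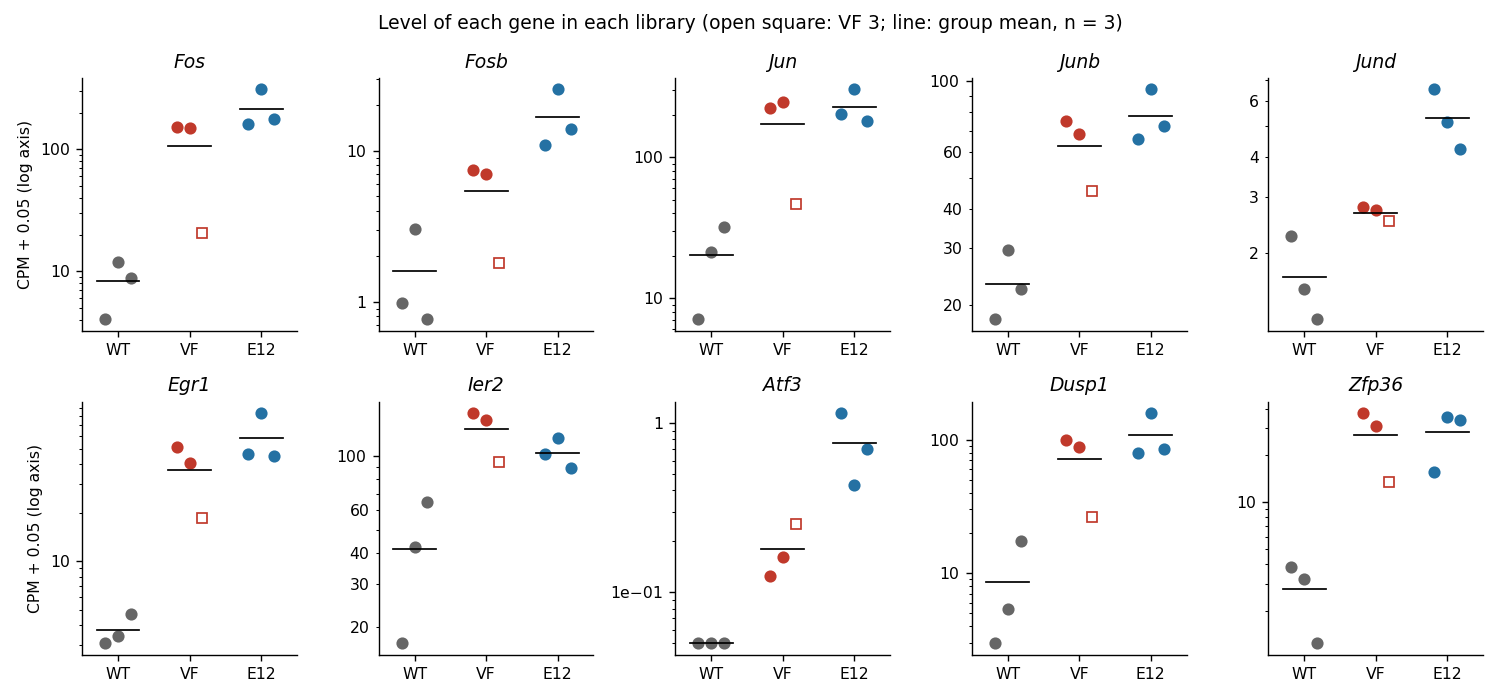
CPM plus 0.05 (log axis) of the 10 genes in each library of WT (grey), VF (red) and E12 (blue), with the group mean as a line and VF 3 as an open square. VF 3 sits below VF 1 and VF 2 for every gene but Atf3.

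Of the Fos family, Fos encodes the inducible partner of Jun proteins, in 4 exons at chr12:85473890-85477274 (GRCm38.p6, plus strand). Its level was 151, 150 and 20.7 CPM in VF 1, 2 and 3, 162, 310 and 177 CPM in E12 1, 2 and 5, and 3.98, 11.9 and 8.81 CPM in WT 50, 51 and 52. All 6 mutant libraries lay above the 3 WT libraries, and VF 3 stood far nearer to WT than to the other VF libraries. Fos rose in VF by a log2 fold change of 3.70 ± 0.75 (SE; edgeR adjusted p = 0.0041), and the 95% interval of its fold change ran from 4.04 to 41.7. In E12 its log2 fold change was 4.71 ± 0.78 (edgeR adjusted p = 0.0031), or 26.2-fold with an interval from 7.71 to 88.8. Fosb (chr7:19302696-19310118, minus strand), a close relative of Fos with slower kinetics, was much less abundant, at 7.43, 6.93 and 1.74 CPM in VF, 10.9, 25.4 and 13.8 in E12, and 0.94, 2.99 and 0.71 in WT. Here VF overlapped with WT, because VF 3 lay between the WT libraries, while E12 lay wholly above WT. The log2 fold change of Fosb was 1.78 ± 0.73 in VF (edgeR adjusted p = 0.070), which missed the threshold, and 3.42 ± 0.78 in E12 (edgeR adjusted p = 0.0088). The VF value depended on single libraries: it was 2.21 without VF 3 (edgeR adjusted p = 0.043) and 2.50 without WT 51 (0.028), but 1.18 without WT 52 (0.21) and 1.35 without WT 50 (0.17). It was 0.10 with gene length offsets and 0.11 on the deposited log2 levels (adjusted p = 0.92 in each). The E12 value was 4.15 without WT 51 and 2.82 without WT 52, both past the threshold.

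Jun, a gene of 1 exon at chr4:95049036-95052222 (minus strand) for the AP-1 subunit that pairs with Fos and with itself, had the highest CPM of the Jun family. It was at 224, 245 and 46.4 CPM in VF, 201, 302 and 181 in E12, and 7.01, 21.4 and 32.1 in WT. The mutant libraries again lay above WT, with VF 3 only 1.44 times the highest WT library. Jun rose in VF by 3.09 ± 0.70 (log2 fold change ± SE; edgeR adjusted p = 0.0070) and in E12 by 3.50 ± 0.72 (edgeR adjusted p = 0.0064). Junb (1 exon, chr8:84976909-84978748, minus strand), whose protein is a weaker activator than Jun and opposes it at some genes, was at 75.1, 68.3 and 45.3 CPM in VF, 66.2, 94.3 and 72.3 in E12, and 17.9, 29.5 and 22.3 in WT. The groups did not overlap with WT, and the spread within each group was narrow, at most 1.66 between the highest and the lowest library. Junb rose by 1.43 ± 0.29 in VF (edgeR adjusted p = 0.0043) and by 1.74 ± 0.29 in E12 (edgeR adjusted p = 0.0033).

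Jund (chr8:70697739-70700616, plus strand), the member of the family that most cells express without a stimulus, was read at low levels: 2.74, 2.68 and 2.47 CPM in VF, 6.48, 5.10 and 4.21 in E12, and 2.21, 1.49 and 1.19 in WT. Its VF libraries agreed within 1.11 times of each other and lay just above WT. The log2 fold change was 0.69 ± 0.49 in VF (edgeR adjusted p = 0.26), with a 95% interval from -0.40 to 1.79, and 1.69 ± 0.50 in E12 (edgeR adjusted p = 0.023). The E12 call was lost in 5 of 9 leave-one-out fits, with adjusted p of 0.050 without VF 2, 0.079 without E12 1, 0.063 without E12 2, 0.067 without WT 51 and 0.059 without WT 52. It was also lost with RLE size factors (0.054), without the count filter (0.074), in a fit of E12 and WT alone (0.097) and on the deposited log2 levels, where the value was 0.69 (limma adjusted p = 0.12). Jund has 1 exon and overlaps Gm11175 on the opposite strand, so reads of the pair cannot be told apart.

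Among the other regulators, Egr1, a zinc finger factor gene at chr18:34861207-34864956 (GRCm38.p6, plus strand), was at 51.3, 40.6 and 18.4 CPM in VF, 46.1, 83.1 and 44.7 in E12, and 3.04, 3.36 and 4.62 in WT. The WT libraries were low and close together, and even VF 3 was 3.98 times the highest of them. Egr1 rose by 3.32 ± 0.45 in VF (edgeR adjusted p = 0.00080), 9.98-fold with a 95% interval from 4.92 to 20.3. In E12 it rose by 3.98 ± 0.47 (edgeR adjusted p = 0.00091), 15.7-fold with an interval from 7.59 to 32.6. Ier2, a small nuclear protein gene with 1 exon at chr8:84661331-84662852 (minus strand), was at 149, 140 and 94.4 CPM in VF, 101, 118 and 88.7 in E12, and 17.2, 42.4 and 64.8 in WT. WT 50 was the low library and WT 52 the high one, and both mutant groups lay above WT 52. Ier2 rose by 1.62 ± 0.43 in VF (edgeR adjusted p = 0.013) and by 1.31 ± 0.43 in E12 (edgeR adjusted p = 0.036). The E12 call for Ier2 was lost without any 1 of VF 1, VF 2, VF 3, E12 1, E12 2, E12 5 or WT 51, with adjusted p from 0.051 to 0.11, while the fitted value stayed between 1.20 and 1.41. It was lost as well in a fit of E12 and WT alone (edgeR adjusted p = 0.083).

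Atf3 (4 exons, chr1:191170296-191183333, GRCm38.p6, minus strand), a stress-induced factor that pairs with Jun proteins, was barely detected. It had 10 counts over the 3 VF libraries, 53 over the 3 E12 libraries and none over WT. In CPM it was at 0.075, 0.11 and 0.20 in VF and 1.09, 0.38 and 0.65 in E12. Against a floor of 3 counts over the WT group, the ratio of Atf3 was 3.40 in VF and 18.8 in E12. The counting error of its 10 and 53 counts was left out of these ratios. It passed the test in VF (edgeR adjusted p = 0.018) and in E12 (edgeR adjusted p = 0.0061), and without VF 3 the VF call was lost (0.059). In a fit of VF and WT alone, and in the fit without E12 1, Atf3 had too few counts to be tested. Its VF call thus rests on a filter that it passed through E12. On the deposited log2 levels the VF difference was 0.65 (limma adjusted p = 0.39), and the call was lost there too. Atf3 was the member that VF 3 did not hold lowest, on 5 counts against 2 and 3.

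Of the feedback genes, Dusp1 (chr17:26505591-26508472, GRCm38.p6, minus strand) was at 99.0, 88.7 and 26.2 CPM in VF, 79.4, 158 and 85.4 in E12, and 2.93, 5.36 and 17.5 in WT. WT 52 stood well above the other WT libraries, and VF 3 was 1.50 times WT 52. Dusp1 rose by 3.05 ± 0.73 in VF (edgeR adjusted p = 0.0086) and by 3.64 ± 0.75 in E12 (edgeR adjusted p = 0.0065), and without WT 52 these were 3.83 and 4.43. Zfp36 (chr7:28376784-28379228, minus strand) was at 37.4, 30.7 and 13.4 CPM in VF, 15.7, 35.0 and 33.9 in E12, and 3.81, 3.18 and 1.19 in WT. Here WT 52 was the lowest WT library, the reverse of Dusp1, and E12 1 was low beside the other E12 libraries. Zfp36 rose by 3.32 ± 0.59 in VF (edgeR adjusted p = 0.0024) and by 3.38 ± 0.59 in E12 (edgeR adjusted p = 0.0037), and without WT 52 these were 2.68 and 2.74. Gm44710 overlaps Zfp36 on the opposite strand, and reads of the pair cannot be told apart.

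**Figure D3:**
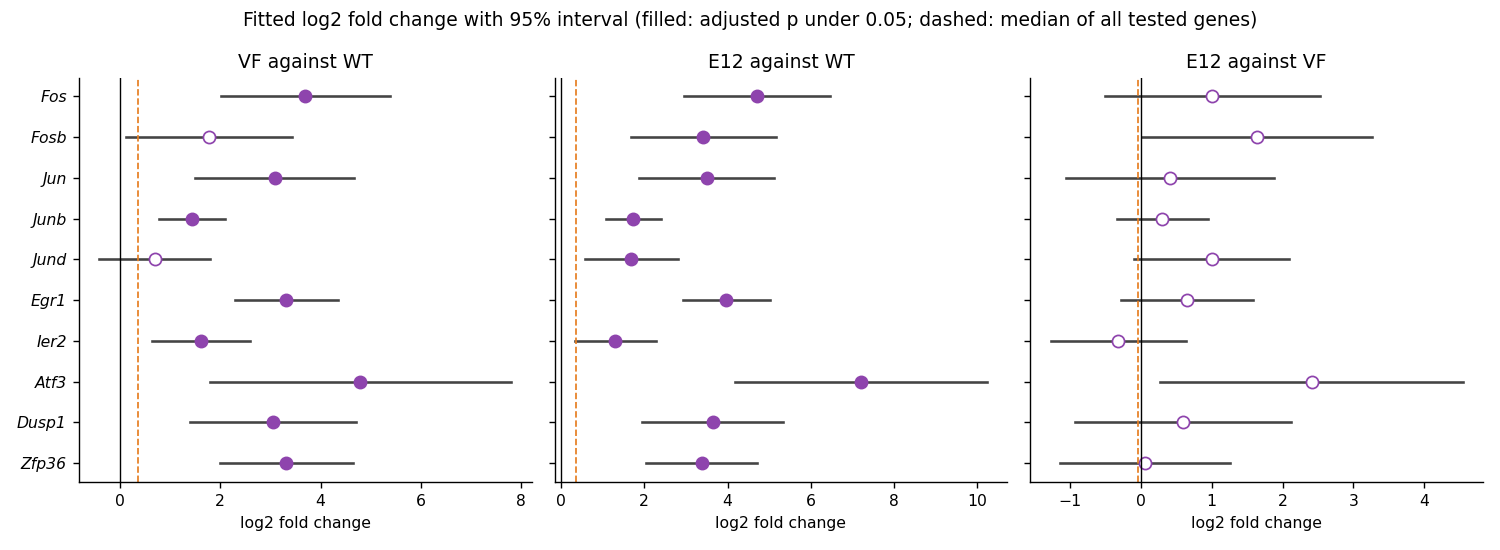
Fitted log2 fold change (x axis) of each gene with its unadjusted 95% interval in the 3 comparisons, filled where the adjusted p was under 0.05; the dashed line is the median of all genes tested. In E12 against WT 10 of 10 points are filled, and in E12 against VF none is.

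E12 against VF gave no call among the 10 genes by edgeR, DESeq2 or limma-voom, and 2 genes had an unadjusted edgeR p under 0.05. These were Fosb, with a log2 fold change of 1.64 (edgeR adjusted p = 0.28, 95% interval from 0.0091 to 3.26), and Atf3, with 2.41 (edgeR adjusted p = 0.22, interval from 0.28 to 4.54). The E12 libraries lay above every VF library for 4 genes, Fos, Fosb, Jund and Atf3, as they did for 28.2% of all genes. For Fos the difference was 1.01 with an interval from -0.51 to 2.53, so the data allow anything from a 0.70-fold to a 5.78-fold ratio. Jun, at 0.41, had an interval from -1.06 to 1.88 and Zfp36, at 0.05, one from -1.15 to 1.26. Ier2 was the member with a lower fitted level in E12, at -0.32 with an interval from -1.27 to 0.64. Junb had the narrowest interval, from -0.34 to 0.95 around 0.30. In a fit of these 6 libraries alone, without WT, Fosb (1.68, edgeR adjusted p = 0.029) and Jund (1.03, 0.016) passed, where 25.4% of all genes passed upward.

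Levels were compared between genes per length, as RPKM, which is CPM per kilobase of the authors' gene length. In WT Ier2 was highest at 27.2 ± 15.7 (SD, n = 3), followed by Junb at 12.6 ± 3.18, Jun at 6.33 ± 3.95, Dusp1 at 4.42 ± 4.01 and Fos at 3.93 ± 1.91. Each of these overlapped with its neighbour in the order. In VF Ier2 stayed first at 84.0 ± 19.3, with Jun at 53.9 ± 34.2 and Fos at 51.2 ± 35.8 next. In E12 Fos came first at 103 ± 39.0, then Jun at 71.6 ± 20.4 and Ier2 at 67.4 ± 9.51. Neighbours among the leading 5 genes overlapped in every group, and genes further apart in the order were not compared. Below them a step without overlap separated Junb from Zfp36 in VF and from Egr1 in E12. Fosb, Jund and Atf3 filled the last 3 places in every group: in E12, for example, Fosb was at 4.42 ± 2.03, Jund at 1.83 ± 0.40 and Atf3 at 0.36 ± 0.18 RPKM.

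Within a genotype the libraries differed too. In VF, VF 3 was the lowest VF library for 9 of the 10 genes, and the share of all genes with this order is not given here. Against the mean of VF 1 and VF 2, VF 3 held 0.14 times the Fos level, 0.20 times that of Jun, 0.24 times that of Fosb and 0.28 times that of Dusp1. Zfp36 stood at 0.39, Egr1 at 0.40, Junb at 0.63 and Ier2 at 0.65, while Jund was at 0.91. Thus 6 of 10 genes were at 0.5 or less, a ratio reached by 1.93% of all genes tested, and the median ratio of all genes was 0.99.

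Over the 9101 genes with a mean of at least 10 CPM in VF 1 and VF 2, only 7 had a ratio of 0.5 or less in VF 3. In order from the lowest they were Xist, Tsix, Fos, Jun, Dusp1, Zfp36 and Egr1, so 5 of the 7 were members and the other 2 were the X inactivation RNA and its antisense partner. The next gene was Rab35 at 0.53, chosen for mention after its value was seen, and Junb ranked 19 and Ier2 26 from the lowest. Of these 9101 genes 93.2% had a ratio between 0.8 and 1.25. On the high side 8 had a log2 ratio from 1.0 to 1.25, 3 from 1.25 to 1.5, 1 from 1.5 to 1.75 and 1 from 1.75 to 2.0. The set was chosen on the mean of VF 1 and VF 2, so genes high in VF 3 alone can fall outside it. Of 32 other immediate early genes none was at 0.5 or less in VF 3, and the lowest stood at 0.55. In VF 1, 2 and 3 the summed markers were 1602, 1569 and 1529 CPM for stem cells and 3636, 3144 and 2859 for megakaryocytes. They were 10070, 7179 and 13181 CPM for neutrophils, 581, 562 and 752 for mast cells, and 151, 172 and 309 for B cells. Monocyte markers summed to 746, 620 and 760 CPM, and T and NK markers to 548, 524 and 623. VF 3 was the highest VF library in each list from neutrophils to T and NK cells. Erythroid markers summed to 1198, 1842 and 1333 CPM and MEP and early factors to 3101, 3278 and 3110, with VF 2 the highest in both. In E12, Fos was at 162 and 310 CPM in the libraries with low Xist and at 177 in the one with high Xist. The part of cell content or sex in the VF 3 values was not tested. VF 3 stood above the highest WT library for 9 of the 10 genes, all but Fosb, with Atf3 on 5 counts against none. All VF libraries lay above all WT libraries for 39.7% of all genes, so the share for VF 3 alone is at least that.

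**Figure D4:**
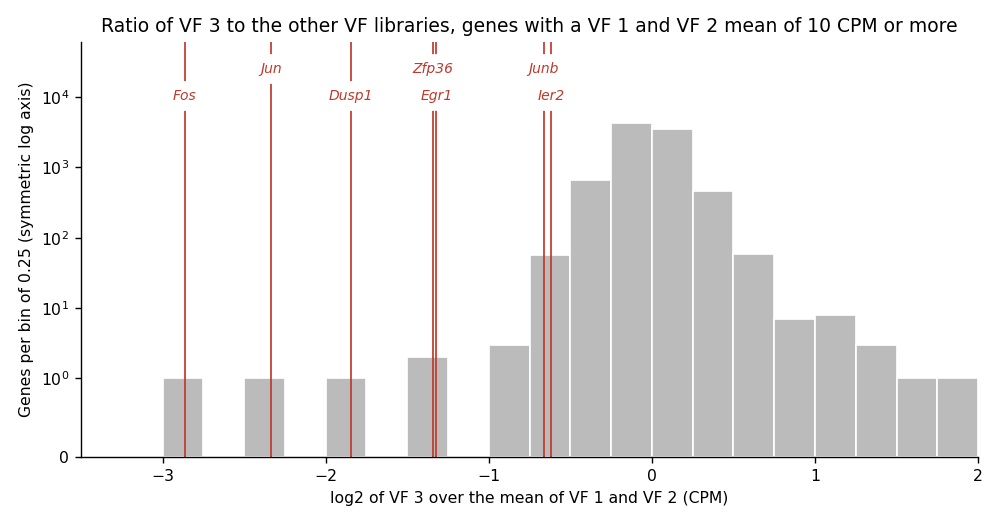
Number of genes (y axis, symmetric log) by the log2 ratio of VF 3 to the mean of VF 1 and VF 2 (x axis), for the 9101 genes with a mean of at least 10 CPM in those 2 libraries; red lines mark the 7 members among them. The x axis leaves out Xist and Tsix, which lie further left, and Fos, Jun, Dusp1, Zfp36 and Egr1 stand apart from the bulk.

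In E12, replicate 2 was the highest library for 8 of the 10 genes, an order seen for 29.7% of all genes. Its level over the mean of E12 1 and E12 5 was 2.06 for Fosb, 1.92 for Dusp1, 1.83 for Fos and 1.83 for Egr1. Jund and Atf3 were the exceptions, both highest in E12 1. In WT, WT 50 was the lowest library for 6 genes, and it was also the library with the largest share of counts in short genes. The share of all genes lowest in WT 50 is not given here. Most members deviated in the same direction within a library. The correlation of their deviations from the group mean, on log2(CPM + 0.5) over 9 libraries, had a median of 0.73 over the 28 pairs of the 8 genes without Atf3 and Jund, with a range from -0.24 to 0.93. The 17 pairs with Atf3 or Jund had a median of -0.38. That division was made after the values were seen, the points share their libraries, and no test was made.

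**Figure D5:**
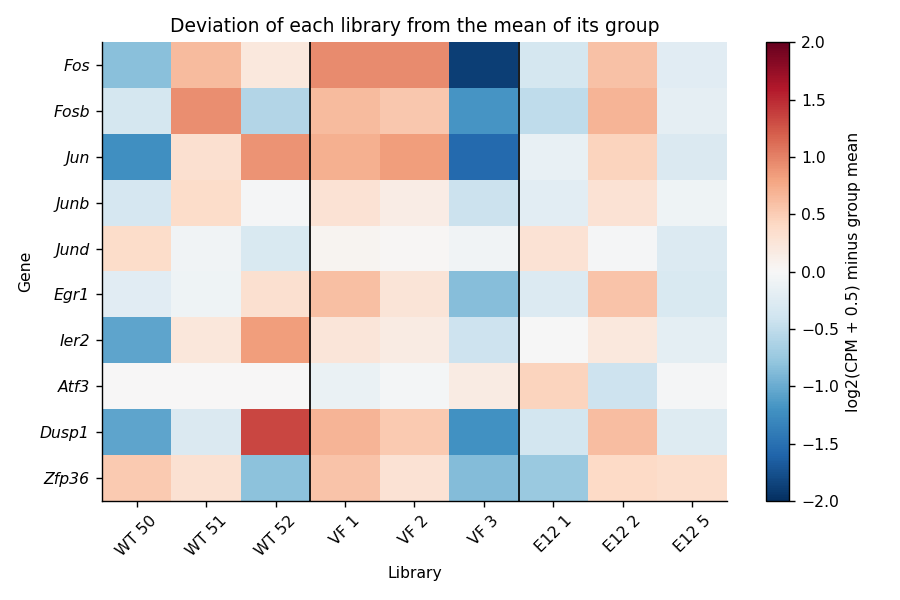
Deviation of log2(CPM + 0.5) from the mean of its group (colour) for each gene (rows) in each library (columns). VF 3 is below its group mean in all genes but Atf3, with -1.89 for Fos and -1.55 for Jun.

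Over all 9 libraries, the genes whose log2 CPM most resembled that of Fos among 8994 genes with a mean of at least 10 CPM were themselves members. Junb (Pearson r = 0.98), Jun (0.98), Egr1 (0.97) and Dusp1 (0.96) took ranks 1 to 4. Zfp36 (0.90) ranked 77 and Ier2 (0.83) ranked 602. The 5 leading genes outside the family were AI314180 (0.95), Usp49 (0.94), Khdrbs1 (0.94), Pi4k2b (0.93) and Akap1 (0.93). None of these 5 was at 0.5 or less in VF 3 against the mean of VF 1 and VF 2. VF 3 was still the lowest VF library for all of them but Khdrbs1. In VF 1, 2 and 3 Khdrbs1 was at 95.2, 80.5 and 81.5 CPM, Usp49 at 16.7, 12.7 and 10.7, and Pi4k2b at 31.6, 20.7 and 18.8. The 9 points fall in 3 genotypes and share their libraries, so r is given as a description.

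Genes of AP-1 partners and further early genes were taken from fixed lists. Beside them, 27.7% of all genes tested rose and 20.9% fell in VF, and 23.9% rose and 18.1% fell in E12. Of 9 tested AP-1 partner genes 5 rose in VF and 5 in E12, where Batf also fell, and the median log2 fold change was 1.70 and 1.47. Fosl2, which encodes the Fos relative Fra-2, was at 5.93 ± 0.77 CPM in VF and 2.63 ± 1.01 in E12 (SD, n = 3) and at most 0.12 in any WT library. Atf7 rose by 1.70 ± 0.28 in VF and 1.47 ± 0.28 in E12 (edgeR adjusted p = 0.0018 and 0.0051), and Mafk by 1.72 ± 0.43 and 1.95 ± 0.44 (0.010 and 0.0085). Of 32 other immediate early genes 13 rose and 1 (Gadd45a) fell in VF, and 15 rose in E12, with medians of 2.41 and 2.26. Cebpd, a C/EBP factor, rose by 4.37 ± 0.43 in VF and 3.78 ± 0.42 in E12 (edgeR adjusted p = 0.00025 and 0.00081). Socs3, the cytokine-induced inhibitor of JAK signalling, had no WT count. Its level was 9.55 ± 1.67 CPM in VF and 3.74 ± 2.45 in E12, and its pooled level was 252 and 101 times a floor of 3 counts over WT. Gadd45b and Plk2 were likewise without a count in WT, at 3.60 ± 1.14 and 1.10 ± 0.26 CPM in VF.

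The genes that carry the signal to this family were examined from the same kind of list. The shares of all genes to set beside them were 27.7% higher and 20.9% lower in VF, and 23.9% and 18.1% in E12. Of 13 serum response and cyclic AMP factors 8 rose and 1 (Crem) fell in VF, and 6 rose in E12 (medians 1.34 and 1.08). Elk3, a partner of serum response factor, rose by 3.40 ± 0.46 in VF and 2.02 ± 0.44 in E12 (edgeR adjusted p = 0.00078 and 0.0075). Of 27 MAP kinase genes 14 rose and 1 (Hras) fell in VF, and 11 rose in E12, with medians of 0.83 and 0.81. Rps6ka2, which encodes a ribosomal S6 kinase, was without a count in WT, and its pooled level was 175 times the floor of 3 counts in VF and 100 times in E12. Of 12 other MAP kinase phosphatase and Sprouty genes 7 rose in VF and 6 in E12 (medians 2.31 and 1.95), among them Dusp7 by 1.90 ± 0.42 and 1.78 ± 0.41 (edgeR adjusted p = 0.0057 and 0.0097).

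Beside Zfp36, 19 genes of AU-rich RNA decay were tested, and 8 rose and 3 (Cnot8, Hnrnpd and Zfp36l1) fell in VF, with 9 and the same 3 in E12. Among all genes 27.7% rose in VF and 23.9% in E12. The 3 that fell were 15.8% of the list, below the 20.9% and 18.1% of all genes. The Zfp36 relative Zfp36l2 rose by 2.05 ± 0.32 in VF (edgeR adjusted p = 0.0014), and Elavl1, which encodes the RNA-stabilizing protein HuR, by 1.55 ± 0.22 in VF and 2.38 ± 0.23 in E12 (edgeR adjusted p = 0.00096 and 0.00055). Heat shock genes are another family that stress raises. Of 13 none rose and 5 fell in VF, and 1 rose and 1 fell in E12, where 20.9% and 18.1% of all genes fell. Hsp90ab1 fell by 1.52 ± 0.34 in VF (edgeR adjusted p = 0.0064) and was lower in E12 too, at 2509 ± 247 CPM against 5026 ± 1771 in WT (SD, n = 3; edgeR adjusted p = 0.039). No gene of these lists passed the test between E12 and VF, where only 2.19% of all genes passed upward and 1.02% downward.

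The sorted cells differed between genotypes in their markers. The calls below stand beside 27.7% of all genes higher and 20.9% lower in VF, and 23.9% and 18.1% in E12. The MEP and early factors of the list, such as Kit and Gata1, each had counts in every group and summed to 3101 to 3278 CPM in VF, 2757 to 3460 in E12 and 4553 to 5655 in WT. Of these 13 genes 7, Kit among them, rose and 3 (Gata1, Gfi1b and Klf1) fell in VF. In E12 6 rose and 3 (Gfi1b, Klf1 and Nfe2) fell. Klf1 was at 113 ± 46.8 CPM in VF, 716 ± 107 in E12 and 2447 ± 880 in WT (SD, n = 3). Stem cell markers summed to 1529 to 1602 CPM in VF, 401 to 647 in E12 and 105 to 156 in WT, with Fgd5, Mecom, Procr, Robo4 and Tek without a count in WT. Of 15 tested, 13 rose and 1 fell in VF, and 11 rose in E12. Megakaryocyte markers summed to 2859 to 3636, 608 to 725 and 145 to 342 CPM, and 15 of 18 rose in VF and 10 in E12. Here Gp6, Itgb3 and Ppbp had no count in WT. Erythroid markers went the other way in VF, at 1198 to 1842 CPM against 24741 to 43632 in WT, and 17 of 20 fell, against 20.9% of all genes. In E12 they summed to 9503 to 35915 CPM, and 4 rose and 4 fell (20.0% each way, near the shares of all genes). Cd34, which MEP gates usually leave out, was at 660 ± 23.2 CPM in VF, 211 ± 85.2 in E12 and 3.63 ± 1.17 in WT.

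Markers of other blood lineages were present too. Their calls also stand beside 27.7% of all genes higher and 20.9% lower in VF, and 23.9% and 18.1% in E12. Monocyte markers summed to 620 to 760 CPM in VF, 251 to 535 in E12 and 90.0 to 871 in WT, where Klf4 had no count, and 7 of 18 (38.9%) rose in VF and 5 (27.8%) in E12, the latter near the 23.9% of all genes. Neutrophil markers summed to 7179 to 13181, 2099 to 2324 and 515 to 8031 CPM, with Gfi1 without a count in WT, and Mpo alone was at 6888 ± 2076 CPM in VF (SD, n = 3). Of 17, 7 rose in VF, namely Mpo, Elane, Prtn3, Ctsg, Cebpe, Csf3r and Gfi1, most of them known from granulocyte progenitors, while the median of the list was -0.37. In E12 3 (17.6%) rose and 4 (23.5%) fell, with a median of -0.64. WT 50 had the highest sum within WT of each cell type list and the lowest Fos, Jun and Dusp1. Mast cell markers summed to 562 to 752, 112 to 292 and 89.7 to 249 CPM, with Cd200r3 and Cma1 without a count in WT, and 7 of 12 rose in VF and 4 rose and 1 fell in E12. Of 10 B cell markers 3 (30.0%) fell in VF and none passed in E12, and of 9 T and NK markers 1 rose and 1 fell in each. The part of these cell populations in the levels of the 10 genes was not tested.

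Of the scalings run, offsets for gene length moved the median of all genes most. With offsets that remove each library's trend with gene length, the median log2 fold change of all genes went from 0.36 to -0.78 in VF and from 0.36 to -0.59 in E12. Higher genes then made up 23.2% of the calls in VF, from 57.0%, and 22.3% in E12, from 56.9%. The median of the 10 genes went to 1.82 and 2.50, which lies 2.60 and 3.09 above the median of all genes, against 2.70 and 3.10 without the offsets. With the offsets 8 members still rose in VF and 7 in E12, where Fosb (adjusted p = 0.064), Ier2 (0.068) and Jund (0.70) were lost. Jund in VF turned to -0.84 (edgeR adjusted p = 0.26), and on the deposited log2 levels it was lower in VF, at -0.92 (limma adjusted p = 0.043). With RLE size factors the median of all genes was 0.21 in VF and 0.17 in E12, and with upper-quartile factors 0.43 and 0.34.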

How the data were processed

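The deposited table holds whole-number gene counts for 17769 genes with the authors' gene lengths, and a second deposited table holds the authors' log2 levels. The tools STAR and limma and the builds GRCm38 and mm10 are listed, per the submitters' processing notes, with no version or role, and the counting tool is not given in the sources used here. Counts of all 9 libraries entered 1 fit in edgeR 4.0.16 (R 4.3.3; filterByExpr, TMM factors, glmQLFit, glmQLFTest) in which only the group was modelled. Two-sided p-values were adjusted over 13608 genes (Benjamini-Hochberg, threshold 0.05), and SE is the size of the log2 fold change over the root of F. Intervals are 95%. Members and gene lists were chosen with earlier results of these data known. Of each list up to 3 called genes with the smallest p per comparison could be named, beside the 10 members, Jak2, and the 5 genes most like Fos; some are left out for brevity, and Gm11175, Gm44710, Xist, Tsix, Ddx3y, Rab35 and genes that fell were named after their values were seen. A fold against a group without counts used a floor of 3 counts over the group, which covers counting error in that group only. The counting error of the other group was left out. No pair of libraries within a group agreed within sampling noise. No exact permutation test of a single gene is given, since its smallest p at this group size is 0.1. DESeq2 1.42.0 and limma 3.58.1 served as alternatives. All columns of the tables were matched to a sample. The statistics were tested on simulated data. Promoter windows are RefSeq's (GRCm38.p6), exons and overlaps GENCODE M21's.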

Additional observations from a re-analysis of the deposited data

How the results depend on the processing

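On the deposited log2 levels (limma) 1 member was called lower in VF against WT, namely Jund, at -0.92; it was -0.84 with length offsets. In E12 against VF 2 members were called higher on those levels (Atf3 and Jund) and 2 when only these groups were fitted. With the replicate block over the 2 shared numbers 1 member was called, Fosb at 1.24 (edgeR adjusted p = 0.019), against 2 for the same 4 libraries without the number. Deviations of same-numbered libraries correlated at 0.031 and 0.12. No label pairs these libraries, and whether they share more than a number was not tested. In E12 against VF Jun ranged from -0.04 (without VF 3) to 0.76 over the left-out libraries and Zfp36 from -0.27 (without VF 3) to 0.36. Zfp36 was also below 0 with upper-quartile factors (-0.02), without WT 50 and E12 5 (-0.04), with the replicate block (-0.50), with the same 4 libraries and no number (-0.39), and without VF 3, WT 50 and E12 5 (-0.36). Over the 6 libraries with Xist under 10 CPM, VF 3 being the lone VF library and assumed to vary like the others, 0 members were called in VF and 0 in E12 against WT, where 2 and 0 of all 14379 genes were called; the members' median log2 fold changes were 1.28 and 3.60, with 0.36 and 0.33 over all genes. Ier2 in E12 against VF was then 0.21. This setting, that with 3 libraries left out and that with the same 4 libraries were chosen after seeing the data. Atf3 had 10 counts in VF, 53 in E12 and none in WT, so its fold has no upper bound, and its ratio to the floor leaves out the error of those counts.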
